A study of Homo sapiens with 8 samples.

Results

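The histone genes described here were measured in A375 cells, a human melanoma line, by 105 probe sets of the HG-U133 Plus2 array, out of 54613 probe sets that are not controls. A probe set, a short group of probes for the same transcript, was taken when any of its gene symbols began with H1-, H2AC, H2BC, H3C or H4C, or was H2AX, H2AZ1, H2AZ2, H3-3A, H3-3B, MACROH2A1 or MACROH2A2. These probe sets carried the symbols of 76 of the 21357 genes on the array. By symbol, 69 probe sets (63 genes) belonged to the clustered histone genes, 28 (8 genes) to the variant histone genes, and 8 (5 genes) to other H1- symbols, which are germ line linker histones, a pseudogene and an antisense RNA. The clustered class, set by symbol alone, also holds H2BC12L, which lies outside the clusters, and the pseudogenes H2AC5P and H4C10P. Sequence is shared widely within the clusters, so that 28 of the 105 probe sets carried several symbols, and 20 had the suffix _x_at and 19 the suffix _s_at, which the array design uses for probes that can bind more than a single transcript. Values from such probe sets cannot be assigned to 1 gene.

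Histones are the proteins around which DNA is wrapped, and cells make most of them during S phase from gene clusters whose mRNAs end in a stem-loop instead of a poly(A) tail. Variant histones such as H2A.Z, H3.3 and macroH2A replace the S-phase histones in selected chromatin and come from polyadenylated mRNAs made in every phase of the cell cycle. Some clustered genes, among them H2AC6, H2BC4, H2BC5, H2BC12 and H2BC21, also give polyadenylated transcripts, which are known from cells that have left the cell cycle. How the RNA of these arrays was primed for labelling is not given in the sources used here, so the share of stem-loop mRNA that the signals hold is not known.

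The study asked which genes depend on HSF1, the transcription factor of the heat shock response, when HSP90 is inhibited. There were 4 groups of 2 arrays each. All cells carried a Doxycycline (Dox) inducible short hairpin from a lentivirus, in puromycin-selected cells, either shNTC (non-targeting) or shHSF1. A single shHSF1 hairpin was used, which the titles name by a code, and which of the paper's HSF1 hairpins it is was not stated. What it does to other transcripts cannot be told apart from the loss of HSF1. The shNTC DMSO group received the solvent alone at 0.1% for 3 h, the shNTC Dox DMSO group had Dox at 100 ng/mL for 3 d before it, the shHSF1 HSP990 group received the HSP90 inhibitor NVP-HSP990 at 100 nM for 3 h without Dox, and the shHSF1 Dox HSP990 group received Dox and the inhibitor. The titles of the arrays separate cells with and without Dox, while the growth protocol in the labels names Dox for all lines, and the titles were followed. Both inhibitor groups were shHSF1 and both DMSO groups shNTC, so the inhibitor and the hairpin line cannot be told apart, and no label states that replicate arrays are from independently grown cells. The p-values therefore reflect variation among arrays that could be purely technical.

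HSF1 itself checked the labels. Its MAS5 signals (probe set 202344_at), in linear units that the authors scaled per array, were 38.2 and 47.3 in shNTC DMSO, 36.6 and 47.9 in shNTC Dox DMSO, 99.0 and 42.5 in shHSF1 HSP990, and 5.5 and 7.3 in shHSF1 Dox HSP990. The last pair lay below all other arrays. With the knockdown, which is the shHSF1 Dox HSP990 group against the shHSF1 HSP990 group, HSF1 changed by -1.87 on the scale of log2(signal + 16), with a standard error of 0.29 (limma, adjusted p = 0.0133). Only 5 of 10 melanocyte and melanoma markers passed the signal filter: MITF, SOX10, S100B, CSPG4 and MIA did, while MLANA, PMEL, TYR and TYRP1, defining pigment cell markers, had signals of 11.7 or less on all arrays, and DCT was not analysed here. The summed marker signal, to which MITF gave the most, was 2828 and 3661 in shHSF1 Dox HSP990 and 3487 to 4219 on the other 6 arrays. All 5 tested markers had log2 differences below 0 with the knockdown (median -0.35, range -1.03 to -0.16). S100B had -1.03 (unadjusted p = 0.00613, adjusted p = 0.142, limma) and SOX10 -0.49, and the part of these differences in the histone results was not tested. Of 12 epithelial, fibroblast and leukocyte markers, KRT8, KRT18, COL1A1 and DCN passed the filter, with a summed signal of the list of 2092 and 2437 against 2067 to 2505, and none of either list was called with the knockdown. The ratio of 3′ to 5′ signal of the ACTB control, a measure of RNA integrity, ran from 4.73 to 46.8 and was highest on the second shNTC Dox DMSO array. It was 10.3 and 5.63 in shHSF1 Dox HSP990, inside the range of the other arrays. In shHSF1 HSP990, the group it is compared with for the knockdown, the ratio was 18.9 and 8.27. The part of RNA integrity in the histone results was not tested.

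The filter for testing asked for a signal no lower than the median of the array on at least 2 of the 8 arrays. This kept 67 of the 105 histone probe sets, made up of 40 of the 69 clustered, 25 of the 28 variant and 2 of the 8 other H1- probe sets. Each of the remaining 38 reached its array's median on at most 1 array. A probe set was called when the adjusted p of limma, corrected by Benjamini-Hochberg over all 29348 probe sets tested, was under 0.05. A "log2 difference" below is a difference of means of log2(signal + 16), and signals of different probe sets were not compared as levels.

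With the HSF1 knockdown under NVP-HSP990, 11 of the 67 histone probe sets tested were called, all of them clustered and higher. They were 11 of the 40 clustered probe sets tested, and 8 of them were H2B, 2 H2A and 1 shared by H2AC7 and H3C4. Of the 11, 2 (210387_at and 236193_at) passed the filter only through the shHSF1 Dox HSP990 arrays, which leaves 9 of 35 without such probe sets. None of the 25 variant probe sets tested was called, and a difference between the classes was not tested. Over all probe sets tested, 486 were called (1.66%), of which 142 were higher (0.484%) and 344 lower (1.17%), so that most calls on the array went in the other direction. The median log2 difference was 0.78 over the 40 clustered probe sets tested (range -0.47 to 1.83, 36 above 0) and -0.04 over the 25 variant probe sets (range -0.40 to 0.37, 11 above 0), beside 0.01 over all probe sets tested. The clustered median depends on the filter. Of the 40, 5 passed only through the 2 shHSF1 Dox HSP990 arrays and so had to be higher there. The median over the other 35 was still 0.77. Over all 69 clustered probe sets, with no filter, it was 0.25, with 29 added that reached their array's median on at most 1 array. In that setting 7 of the 105 histone probe sets were called, all higher, beside 76 higher over the whole array (0.139%).

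**Figure D1:**
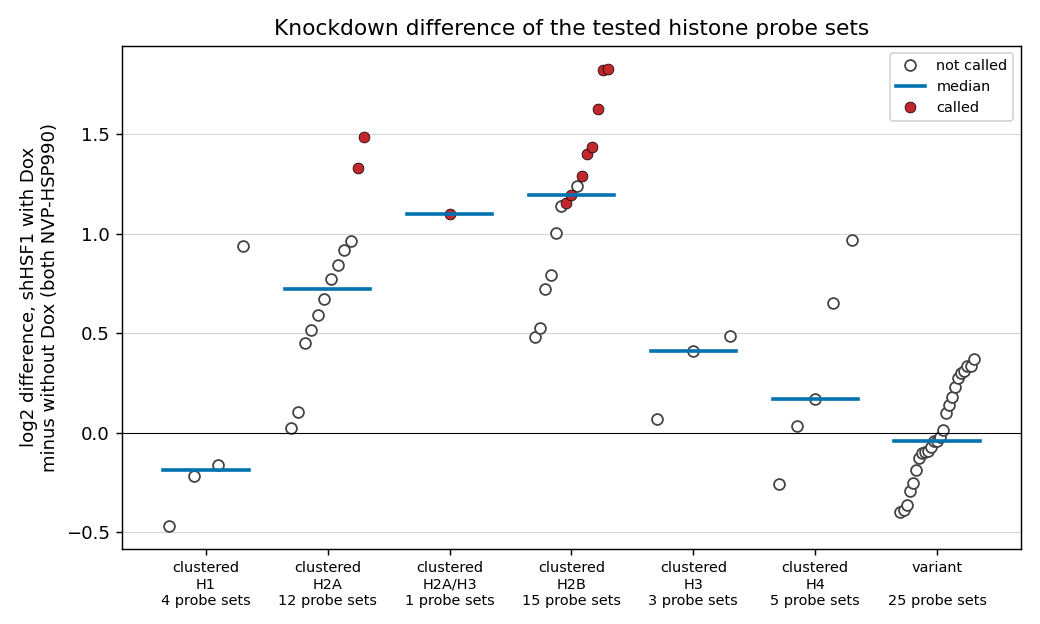
Each circle is a clustered or variant histone probe set that passed the signal filter, placed on the y axis by its log2 difference between shHSF1 cells with and without Dox, both under NVP-HSP990 (2 arrays against 2), and on the x axis by class and family. The 2 tested probe sets of other H1- symbols (-0.48 and -0.09, neither called) are not shown. Red circles were called (adjusted p under 0.05, limma), open circles were not, and blue lines are medians. The called probe sets lie in the H2A and H2B families and in the probe set shared by H2AC7 and H3C4, and the 25 variant probe sets lie between -0.40 and 0.37.

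The same split showed without any test in the order of the arrays. Both shHSF1 Dox HSP990 arrays lay above the other 6 for 32 of the 69 clustered probe sets and below them for 0. For the 28 variant probe sets they lay above for 2 and below for 2. Over all probe sets of the array, 7.19% had both these arrays above the other 6. The summed signal of the 69 clustered probe sets was 3715 and 3134 in shNTC DMSO, 3818 and 2714 in shNTC Dox DMSO, 3315 and 3341 in shHSF1 HSP990, and 8245 and 7831 in shHSF1 Dox HSP990. The last 2 arrays were far above the rest, which did not separate by group. Much of the rise was in 4 probe sets, those of H2BC12, H2AC6, H2BC21 and H1-2 described below, which gave 63.9% of the difference in mean sum from shHSF1 HSP990. Without them the sum of the other 65 was 3260 and 3594 in shHSF1 Dox HSP990, against 1520 to 2223 on the other 6 arrays. The summed signal of the 28 variant probe sets was 29370 and 31902 in shHSF1 Dox HSP990, within the range of the other 6 arrays (29107 to 37824).

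**Figure D2:**
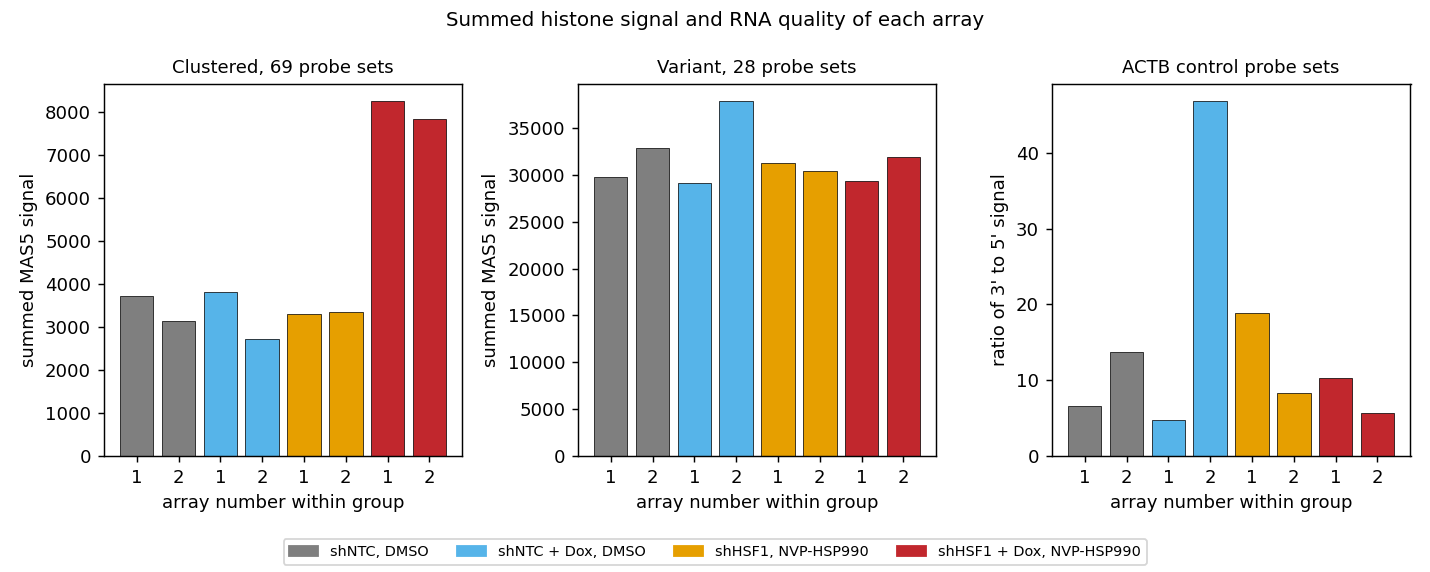
Bars give, for each of the 8 arrays, the summed MAS5 signal of the 69 clustered histone probe sets (left), that of the 28 variant probe sets (middle) and the ratio of 3′ to 5′ signal of the ACTB control probe sets (right). Colours mark the groups and the x axis numbers the arrays within each. The clustered sum is 7831 and 8245 on the shHSF1 Dox HSP990 arrays and 2714 to 3818 on the other arrays, while the ACTB ratio on these 2 arrays is 10.3 and 5.63, within the range of the others.

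Promoters are printed for 3 genes whose probe sets were called with the knockdown and for 1 variant gene, to show the motifs they hold and, for H2AC6, the stretch it shares with its neighbour H2BC4. RefSeq promoter sequence (GRCh38.p14) was matched to 66 of the 76 genes, 49 of them on chromosome 6, as 75 windows of the 250 bases before a transcription start. Of the pairs of histone genes that face away from each other within these windows, H2BC4 and H2AC6 start 246 bases apart, H2BC8 and H2AC8 233, and H2BC11 and H2AC11 248. In the sequences below, which run 5′ to 3′ toward the start, capitals mark the motifs searched on both strands: the octamer ATTTGCAT known from H2B promoters, the CCAAT box bound by NF-Y, the TATA box in its form TATAAA, and the pattern GAANNTTC, an inverted repeat of the unit that heat shock factors bind. They stand for H2BC12 (chr6:27146856-27147105, minus strand, 1 of 2 listed starts), H2AC6 (chr6:26123922-26124171, plus strand, which spans the stretch shared with H2BC4), H2BC21 (chr1:149886683-149886932, minus strand) and, as a variant gene for comparison, H2AZ1 (chr4:99950276-99950525, minus strand).
H2BC12: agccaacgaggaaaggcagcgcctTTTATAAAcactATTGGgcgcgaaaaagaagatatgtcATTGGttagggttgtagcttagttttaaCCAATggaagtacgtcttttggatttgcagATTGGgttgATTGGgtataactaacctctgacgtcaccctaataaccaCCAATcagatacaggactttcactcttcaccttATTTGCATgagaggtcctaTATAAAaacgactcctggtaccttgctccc
H2AC6: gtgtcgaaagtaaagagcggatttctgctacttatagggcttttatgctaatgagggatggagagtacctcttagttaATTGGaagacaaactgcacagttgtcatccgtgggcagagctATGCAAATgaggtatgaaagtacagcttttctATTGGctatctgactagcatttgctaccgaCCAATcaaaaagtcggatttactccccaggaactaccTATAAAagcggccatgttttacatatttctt
H2BC21: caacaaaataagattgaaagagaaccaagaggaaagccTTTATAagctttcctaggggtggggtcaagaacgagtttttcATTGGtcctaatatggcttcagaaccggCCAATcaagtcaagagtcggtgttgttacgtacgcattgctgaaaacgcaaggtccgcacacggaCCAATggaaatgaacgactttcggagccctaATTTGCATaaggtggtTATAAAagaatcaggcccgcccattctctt
H2AZ1: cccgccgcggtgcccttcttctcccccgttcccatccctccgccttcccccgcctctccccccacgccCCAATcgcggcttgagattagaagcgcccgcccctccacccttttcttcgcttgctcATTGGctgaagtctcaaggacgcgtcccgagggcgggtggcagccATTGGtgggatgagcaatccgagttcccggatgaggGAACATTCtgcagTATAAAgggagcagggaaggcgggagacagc

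The octamer began 49 bases before the H2BC12 start and 46 before the H2BC21 start, and on the opposite strand 130 bases before the H2AC6 start, where it reads toward H2BC4. TATAAA began 30 or 31 bases before the start in all 4 windows printed. The octamer was held by 77.8% of 18 clustered H2B windows and 61.5% of 13 clustered H2A windows, against 10.0% of 10 clustered H3 windows and none of 13 clustered H4 windows or 5 clustered H1 windows, beside 1.63% of all 35116 promoter windows. The windows of H2A and H2B genes that face away from each other overlap, so the same octamer can count for both families. H2BC12 counted with 2 windows. In the 12 variant windows it was found in 8.33%. CCAAT occurred in every clustered H1, H2A, H2B and H3 window, in 23.1% of the clustered H4 windows and in 66.7% of the variant windows, beside 32.0% of all promoters, and TATAAA in 66.1% of the clustered and 33.3% of the variant windows, beside 10.7%. GAANNTTC was found in 3.39% of the clustered windows, all of H3 genes, and in 8.33% of the variant windows, beside 5.78% of all promoters. In 7 of the probe sets called with the knockdown a single gene was the only symbol. Of these 7 genes, 6 had a window, and 5 of these held the octamer, H2BC5 being without it. Only 2 of the 7 probe sets, those of H2BC12 and H2BC4, lacked the suffixes _x_at and _s_at, so the others cannot be assigned to 1 gene. These letter matches are a description and not evidence of binding.

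H2BC12, a clustered H2B gene that also gives a polyadenylated transcript, had the lowest adjusted p of the histone probe sets (209806_at). Its signals were 472 and 372 in shNTC DMSO, 392 and 316 in shNTC Dox DMSO, 479 and 518 in shHSF1 HSP990, and 1753.5 and 1858.5 in shHSF1 Dox HSP990. The last 2 arrays lay well above the other 6, which overlapped between groups apart from the slightly higher shHSF1 HSP990 pair. With the knockdown the mean signal was 3.62 times higher (1806 ± 74 against 498 ± 27, SD, n = 2 each), a log2 difference of 1.83 (standard error 0.18, adjusted p = 0.00119, limma). This call was kept in all 8 fits that left out 1 array. H2BC12L, a near copy of H2BC12 outside the clusters, is counted as clustered here by its symbol. It was read by an _x_at probe set (208579_x_at), which may also bind other H2B transcripts. Its signals were 129.5 and 103 in shNTC DMSO, 134 and 70.5 in shNTC Dox DMSO, 94.4 and 108 in shHSF1 HSP990, and 370.5 and 432.5 in shHSF1 Dox HSP990, a log2 difference with the knockdown of 1.83 (standard error 0.26, adjusted p = 0.0079, limma).

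H2AC6 and H2BC4, the H2A and H2B genes that share the promoter printed above, both rose. The H2AC6 signals (215071_s_at) were 363 and 338 in shNTC DMSO, 374.5 and 292 in shNTC Dox DMSO, 476 and 346 in shHSF1 HSP990, and 1253 and 1080 in shHSF1 Dox HSP990. Only the last pair stood apart, with a mean 2.84 times that of shHSF1 HSP990 and a log2 difference of 1.48 (standard error 0.20, adjusted p = 0.00568, limma). H2BC4 (236193_at) gave 9.7 and 8.6 in shNTC DMSO, 5.4 and 8.2 in shNTC Dox DMSO, 8.7 and 7.5 in shHSF1 HSP990, and 54.6 and 41.2 in shHSF1 Dox HSP990. On the 6 arrays outside the last group its signal was below the array's median (10.5 to 14.2), so the size of its change shifts with the constant added to the signal. The log2 difference was 1.40 with 16 added (standard error 0.18, adjusted p = 0.00506, limma), 2.42 with 1 added and 0.63 with 64 added. The probe set entered the test only through the 2 arrays in which it was high.

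Among the other genes with polyadenylated transcripts, H2BC21 had signals (202708_s_at) of 204 and 147 in shNTC DMSO, 259 and 176 in shNTC Dox DMSO, 285 and 150 in shHSF1 HSP990, and 871 and 520 in shHSF1 Dox HSP990. Its log2 difference with the knockdown was 1.63 (standard error 0.33, adjusted p = 0.0410, limma), with a wide spread between arrays, and 3 of the 8 fits that left out an array kept the call. H2BC5 was read by 2 probe sets that gave similar differences on either side of the threshold. The first (209911_x_at) had 111 and 81.8, 123 and 72.1, 93.4 and 82.2, and 274 and 206, taking the groups in the order above, with a log2 difference of 1.29 (adjusted p = 0.0385, limma). The other (222067_x_at) had a log2 difference of 1.24 (adjusted p = 0.0973, limma). In all, the 5 genes of this kind had 6 probe sets with no other symbol. All 6 were highest in both shHSF1 Dox HSP990 arrays, and their median log2 difference was 1.44 (range 1.24 to 1.83). Without the H2BC4 probe set, which entered the test only through those arrays, 4 of 5 were called and the median was 1.48. H2BC4 is also a symbol of 3 shared probe sets, with differences of 0.53 to 1.00, none called. In 208523_x_at, which is among them, the shHSF1 Dox HSP990 arrays were not both the highest.

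**Figure D3:**
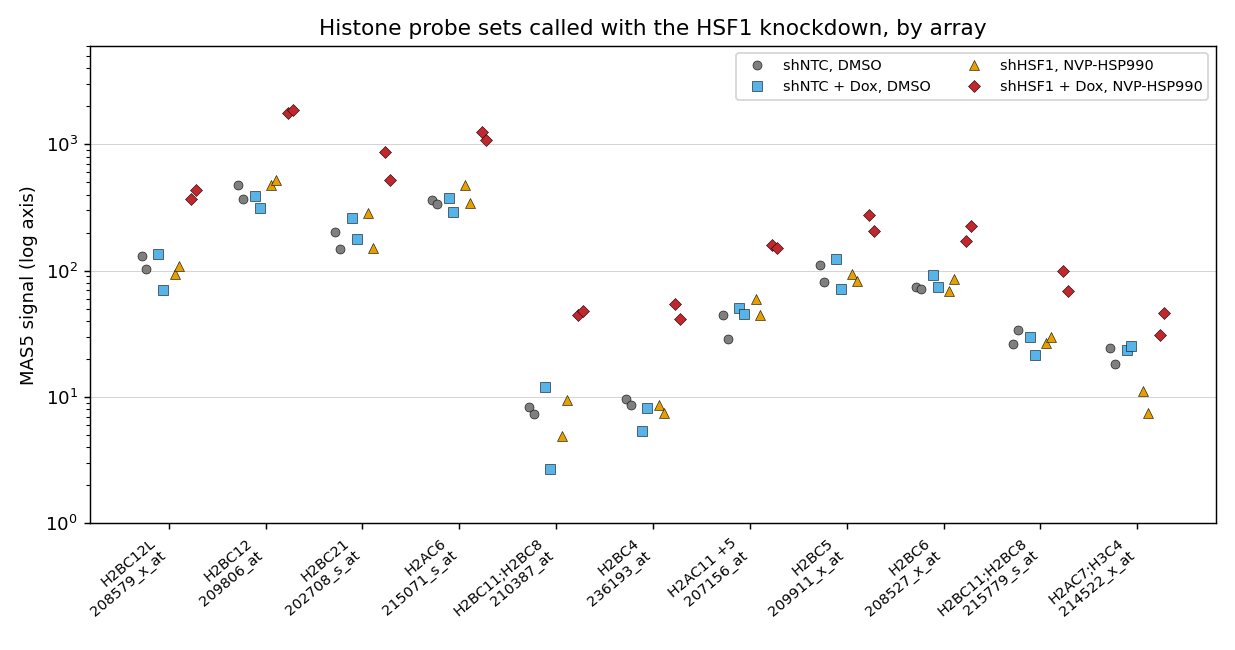
Points give the MAS5 signal (log axis) of the 11 histone probe sets called with the knockdown on each of the 8 arrays, with 4 symbols for the 4 groups and the probe sets ordered by their log2 difference; "+5" stands for the 5 further symbols of that probe set. Both shHSF1 Dox HSP990 arrays lie above the other 6 in all 11, and 2 probe sets, 210387_at and 236193_at, have signals of 12 or less outside that group.

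The remaining clustered H2A and H2B probe sets covered the other genes of these families, alone or shared among several symbols, 3 of them with H2BC4. Of these 30 probe sets, 21 were tested, all 21 had log2 differences above 0 with the knockdown (median 0.79, range 0.02 to 1.83), and 5 were called. These include 3 that passed the filter only through the shHSF1 Dox HSP990 arrays, without which 4 of 18 were called. Besides H2BC12L the called ones were H2BC6 and 3 probe sets with several symbols. The H2BC6 probe set (208527_x_at) gave 73.7 and 71.1 in shNTC DMSO, 92.2 and 73.6 in shNTC Dox DMSO, 69.4 and 85.3 in shHSF1 HSP990, and 173 and 225 in shHSF1 Dox HSP990, a log2 difference of 1.20 (adjusted p = 0.0216, limma). H2BC11 and H2BC8 share 2 probe sets, of which 210387_at rose by 1.44 (adjusted p = 0.0107) and 215779_s_at by 1.16 (adjusted p = 0.0326), both from limma. In the first the signals outside shHSF1 Dox HSP990 were 2.7 to 12 against 44.6 and 48.1, and it entered the test only through that group. A probe set for 6 H2A genes from H2AC11 to H2AC17 (207156_at) gave 44.2 and 28.9, 50.9 and 45.6, 59.6 and 44.9, and 159 and 150, again in group order, with a log2 difference of 1.33 (adjusted p = 0.0160, limma). Its companion with the same 6 symbols (214542_x_at) had a difference of 0.52 (adjusted p = 0.468), so the pair disagree in size. The median of the probe sets' median signals was 18.25 over the 30, near the 16 added before the log. It was 167 over the 6 single-symbol probe sets of the genes with polyadenylated transcripts. The size of a difference at low signals shifts with the constant added, and a difference between these sets was not tested.

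The probe set shared by H2AC7 and H3C4 (214522_x_at) had its lowest signals under NVP-HSP990 without Dox. It gave 24.4 and 18.4 in shNTC DMSO, 23.6 and 25.5 in shNTC Dox DMSO, 11.2 and 7.5 in shHSF1 HSP990, and 31.0 and 46.6 in shHSF1 Dox HSP990. The knockdown difference of 1.10 (adjusted p = 0.0284, limma) was larger than that against shNTC Dox DMSO (0.42, adjusted p = 0.329).

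The clustered H1, H3 and H4 families had no call with the knockdown, although H1-2 and H4C8 lay close to the threshold and passed it under some alternatives. H1-2, a linker histone, had signals (209398_at) of 565 and 448.5 in shNTC DMSO, 570 and 410 in shNTC Dox DMSO, 494 and 460.5 in shHSF1 HSP990, and 1107 and 777.5 in shHSF1 Dox HSP990. Both arrays of the last group were above the other 6, with a log2 difference of 0.94 (standard error 0.22, adjusted p = 0.0731, limma), which passed the threshold in 4 alternatives, after quantile normalization (adjusted p = 0.0433), with the replicate block (0.0121), with 1 probe set per gene (0.0474) and with single-symbol probe sets (0.0476). The other H1 genes tested had differences below 0 that were not called, at -0.16 for H1-5, -0.22 for H1-3 and -0.47 for H1-1. H3 pairs with H4 in the core of the nucleosome, and 3 of 10 H3 probe sets and 5 of 16 H4 probe sets passed the filter. H3C3 (208577_at), an H3 gene, had signals of 243 and 147, 211 and 131, 63.9 and 154, and 61.6 and 176 in group order, a spread within groups as wide as that between them, and its knockdown difference was 0.07 (standard error 0.46). H3C6 differed by 0.48 and the probe set of 10 H3 symbols by 0.41, neither called. H4C8 (232035_at) gave 15.7 and 14.4, 15.9 and 16.1, 11.8 and 22.0, and 57.5 and 39.0 in the same order, with a difference of 0.97 (adjusted p = 0.0625, limma). It passed in 5 alternatives, with 64 added before the log, quantile normalization, median centring, 1 probe set per gene and single-symbol probe sets (adjusted p from 0.0371 to 0.0483), while the brightest H4 probe set (205967_at, 14 symbols) differed by -0.26. A further pair of probe sets with the same 14 H4 symbols differed by 0.65 (207046_at) and 0.03 (208580_x_at). The first entered the test only through the shHSF1 Dox HSP990 arrays, with signals of 15.1 and 22.4 there and 0.7 to 13.2 on the others. A difference between families was not tested.

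No variant histone probe set was called with the knockdown. H2AZ1, which encodes H2A.Z, had signals (213911_s_at) of 2623 and 3517 in shNTC DMSO, 2642 and 4146 in shNTC Dox DMSO, 3242.5 and 3310 in shHSF1 HSP990, and 2896 and 3494 in shHSF1 Dox HSP990, with a knockdown difference of -0.04 (standard error 0.23, adjusted p = 0.971, limma). H2AZ2, its paralogue, had 960.5 and 998, 866.5 and 851, 1127.5 and 1129, and 862 and 843.5 in group order (212205_at), a difference of -0.40 (adjusted p = 0.236), and its 4 probe sets ran from -0.40 to -0.04. In H2AX, the variant phosphorylated at DNA breaks, the brightest probe set (213344_s_at) had 1585 and 1439, 1220 and 1021, 1267 and 749.5, and 940 and 666, a knockdown difference of -0.30 (adjusted p = 0.694). In these probe sets the 2 shNTC DMSO arrays were the highest for H2AX, and the shHSF1 HSP990 arrays were the highest for H2AZ2. Other probe sets did not all share that order, such as 212524_x_at of H2AX and 202487_s_at of H2AZ2.

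H3-3A and H3-3B encode the same H3.3 protein and shared 8 of their 9 probe sets. The brightest (200080_s_at) gave 3669 and 4895 in shNTC DMSO, 4160 and 7204 in shNTC Dox DMSO, 4657.5 and 4474 in shHSF1 HSP990, and 3877 and 4843 in shHSF1 Dox HSP990, with a knockdown difference of -0.07 (adjusted p = 0.952, limma). The highest value was on the second shNTC Dox DMSO array, the array with the highest ACTB ratio, and so were the highest values of H2AZ1 (213911_s_at) and MACROH2A1 (207168_s_at). MACROH2A1, a variant with a large macrodomain, had 2838 and 3601, 3022 and 5206, 3486 and 3546, and 3256 and 3680.5, a difference of -0.02 (adjusted p = 0.986), and its 5 tested probe sets ran from -0.36 to 0.34. MACROH2A2 (218445_at) had 85.0 and 77.8, 65.1 and 79.3, 64.6 and 80.2, and 97.4 and 97.8, with both shHSF1 Dox HSP990 arrays highest (difference 0.37, adjusted p = 0.468). The linker variant H1-10 (204805_s_at) ranged from 183 to 431 with a difference of 0.23 (adjusted p = 0.847). With the knockdown 0 of the 25 variant probe sets were called by limma. An unadjusted p under 0.05 was found for 1 of them, beside 13.37% of all probe sets tested. The methods' t-test called none of the histone probe sets after adjustment, and 0 of all 29348 tested.

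**Figure D4:**
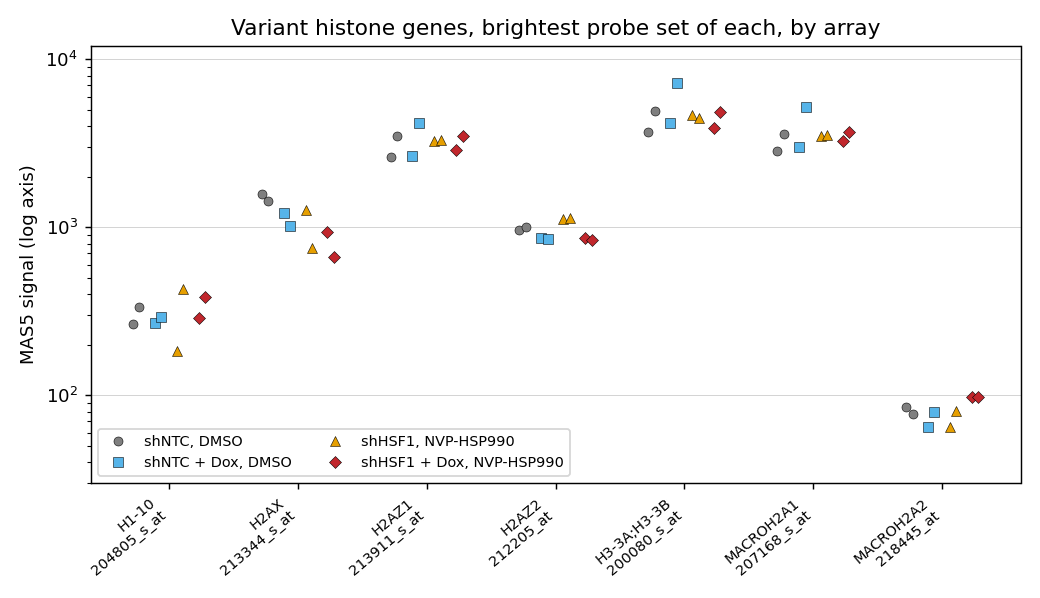
Points give the MAS5 signal (log axis) of the brightest probe set of each variant histone gene on each of the 8 arrays, with 4 symbols for the 4 groups (H3-3A and H3-3B share a probe set). Both arrays of a group lie above the other 6 for H2AX (shNTC DMSO), H2AZ2 (shHSF1 HSP990) and MACROH2A2 (shHSF1 Dox HSP990), and the second shNTC Dox DMSO array is the highest for H2AZ1, H3-3A and H3-3B, and MACROH2A1.

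The number of calls with the knockdown depended on single arrays. It was 2 without either of the shHSF1 Dox HSP990 arrays, 4 without the first and 5 without the second shHSF1 HSP990 array, 6 without either shNTC DMSO array, and 14 without either shNTC Dox DMSO array. H2BC12 was called in all 8 of these fits and H2BC4 in all 6 in which it could be tested, H2AC6 in 7 and H2BC12L in 6, and the other 7 probe sets in 2 to 5. No direction of the 11 changed.

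The shHSF1 HSP990 group set against shNTC DMSO, both without Dox, gave 0 calls among the histone probe sets by limma, beside 36 over all probe sets tested (0.123%). The median log2 difference was -0.03 over the 40 clustered and -0.04 over the 25 variant probe sets tested. At an unadjusted p under 0.05 there were 5 histone probe sets by limma, or 7.46% of the 67 beside 4.24% of all tested, all lower: H1-3 (-0.66), 213344_s_at of H2AX (-0.62), 205967_at of the H4 genes (-0.60), 214522_x_at of H2AC7 and H3C4 (-0.56) and 226840_at of MACROH2A1 (-0.56). The methods' t-test gave 5 of the 67 at that threshold (7.46%), beside 5.41% of all tested, and 0 after adjustment, as over all probe sets tested. H1-3 (214537_at) had 167 and 172 in shNTC DMSO, 126 and 106 in shNTC Dox DMSO, 94.8 and 109.5 in shHSF1 HSP990, and 73.0 and 99.6 in shHSF1 Dox HSP990. The shNTC DMSO arrays were thus above all others, and the smallest adjusted p of the 5 was that of H1-3, at 0.830. H3C3 had the largest drop in size, at -0.82, with a standard error of 0.46.

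Dox alone was compared in shNTC cells with DMSO, and its log2 differences shared no array with those of the knockdown. The signal filter and the limma variance came from all arrays together, so the limma tests of these comparisons are not independent. For Dox in shNTC cells there were 0 calls by limma among the histone probe sets and 0 over the whole array (0%). At an unadjusted p under 0.05 limma gave 1 histone probe set, H1-3 (-0.50), or 1.49% of the 67 beside 2.19% of all tested. The methods' t-test gave 4, none of them higher, or 5.97% beside 4.25%. The median log2 difference was -0.04 over the 40 clustered and -0.10 over the 25 variant probe sets tested, with a highest clustered value of 0.30. For the genes called with the knockdown, the Dox difference in shNTC cells was -0.24 for H2BC12, -0.21 for H2BC12L, -0.08 for H2AC6, -0.14 for H2BC4, 0.28 for H2BC21 and -0.01 for H2BC5 (209911_x_at).

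**Figure D5:**
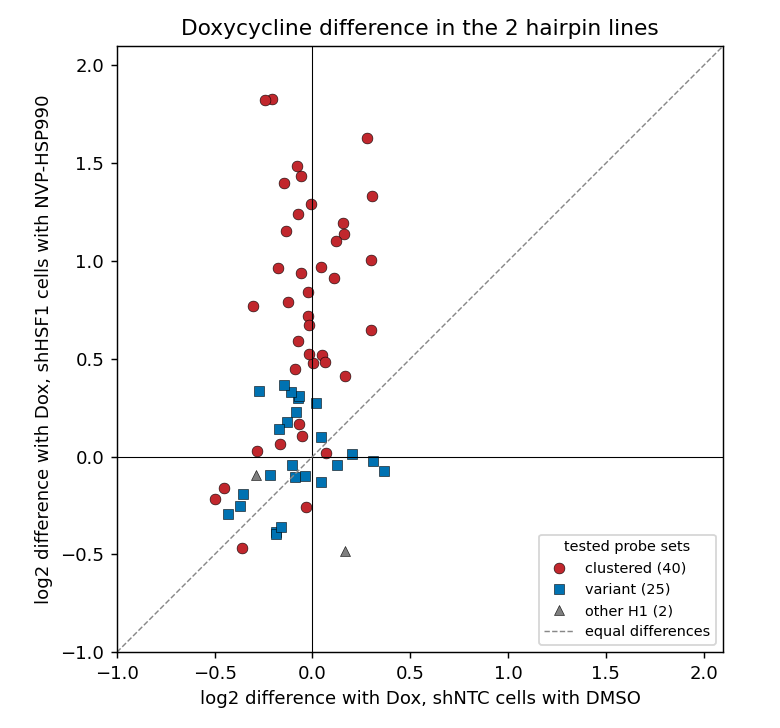
Each symbol is a tested histone probe set, with its log2 difference with Dox in shNTC cells given DMSO on the x axis and in shHSF1 cells given NVP-HSP990 on the y axis (2 arrays against 2 each, no array shared). The 40 clustered probe sets (red circles) reach 1.83 on the y axis but no more than 0.30 on the x axis, and the 25 variant probe sets (blue squares) stay within -0.43 and 0.37 on both axes. The dashed line marks equal differences.

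The difference between these Dox effects, the interaction, was called for 2 histone probe sets, beside 114 over all probe sets tested (0.388%). H2BC12 (209806_at) had an interaction of 2.07 (standard error 0.25, adjusted p = 0.0137, limma) and H2BC4 (236193_at) of 1.54 (standard error 0.26, adjusted p = 0.0405, limma). The H2BC4 probe set entered the test only through the 2 shHSF1 Dox HSP990 arrays and was below the array's median on the other 6, and without it 1 call is left. H2AC6 at 1.56 (adjusted p = 0.0532) and H2BC12L at 2.04 (adjusted p = 0.0544) lay just outside the threshold. The interaction of H2BC12 was called in 4 of 8 fits with an array left out, with adjusted p up to 0.115, and that of H2BC4 in 0 of the 6 in which it could be tested, with adjusted p up to 0.250. The interaction subtracts the Dox difference of shNTC cells. Because the lines also differed in NVP-HSP990, it does not separate the hairpin from a Dox difference that depends on the inhibitor.

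The shHSF1 Dox HSP990 group was also set against shNTC Dox DMSO, a comparison that shares its first group with the knockdown. It called 14 histone probe sets, all clustered and higher, beside 993 over all probe sets tested (3.38%), of which 1.57% were higher and 1.81% lower. The median log2 difference was 0.74 over the clustered and 0.01 over the variant probe sets tested. H2BC12 differed by 2.31 here and by 1.83 with the knockdown, H2AC6 by 1.77 and 1.48, and H2BC21 by 1.58 and 1.63. The probe sets called here and not with the knockdown were H4C8 (0.99, adjusted p = 0.0391), H2AC8 (0.96, adjusted p = 0.0485), H2BC11 (214502_at, 0.95, adjusted p = 0.0230) and 214455_at, shared by H2BC4, H2BC6, H2BC7, H2BC8 and H2BC10 (0.80, adjusted p = 0.0266), all by limma. The last 2 had signals of 8.6 or less outside shHSF1 Dox HSP990 and entered the test only through that group, as did 210387_at and 236193_at, and without these 4 there were 10 calls. H2AC8, which is read away from its neighbour H2BC8, had 83.3 and 76.4, 85.1 and 55.1, 70.9 and 65.9, and 168 and 131 in group order. Without the second shNTC Dox DMSO array, the one with the ACTB ratio of 46.8, the count was 6, without the first and second shHSF1 Dox HSP990 arrays 5 and 3, and without either shNTC DMSO array 8.

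The genes that act on histone mRNA and histone protein were looked at as 3 lists. None of the 18 genes of histone transcription and 3′ end processing was called with the knockdown, and their median log2 difference was -0.16, with -0.53 for ERI1, an exonuclease that trims histone mRNA ends, -0.37 for CSTF2, -0.30 for FIP1L1 and 0.28 for UPF1. None of the 29 S phase and DNA replication genes tested was called either (median -0.15, 8 above 0), and the lowest p belonged to MCM10 (-0.58, adjusted p = 0.157), followed by GINS2 (-0.59), MCM3 (-0.43) and CCNE1 (0.31). Of 24 histone chaperones and deposition factors, 1 was called, and it was lower. ASF1A, a chaperone that carries H3 and H4 to be deposited on DNA, had signals (203428_s_at) of 880 and 820 in shNTC DMSO, 931 and 775 in shNTC Dox DMSO, 832.5 and 719 in shHSF1 HSP990, and 228 and 222 in shHSF1 Dox HSP990. Its log2 difference with the knockdown was -1.71, with a standard error of 0.16 (limma, adjusted p = 0.00105), and was called in the interaction as well (-1.71, adjusted p = 0.0187). The next in order of p were ANP32E (-0.49), CHAF1B (-0.49) and RBBP7 (-0.31), none of them called. No gene of the 3 lists was called with NVP-HSP990 or with Dox in shNTC cells.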

How the data were processed

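Gene expression was measured on 8 HG-U133 Plus2 arrays, grouped by their titles. The deposited values are signal intensities on a linear scale, made by the authors with MAS5 per the submitters' processing notes (version not given in the sources used here) and scaled per array, and were not normalized further. Of 54675 probe sets, 62 controls were left out and 29348 passed the signal filter. After 16 was added, log2 values were fitted with limma 3.58.1 (R 4.3.3) with 1 mean for each of the 4 groups, all 8 arrays together and a variance trend on intensity (4 residual and 6.01 prior degrees of freedom). Tests were two-sided, over 5 comparisons. The number of arrays limits the precision.

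Gene symbols came from the platform annotation and promoters from RefSeq, searched with Python 3.11.15 and pandas 2.3.3. The rule for named genes took HSF1, every histone probe set called, the brightest probe set of each variant gene, the brightest and most changed of each clustered family, and up to 4 genes of each further list by knockdown p. Members and lists were chosen with earlier results of these data known. Alternatives were 1 or 64 added before the log, no filter or one at the 75th percentile, quantile normalization, median centring, no variance trend, a fit on a comparison's own arrays, a replicate block, 1 probe set per gene, single-symbol probe sets without _x_at or _s_at, the methods' t-test and leaving out each array. The steps were tested on simulated data.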

Additional observations from a re-analysis of the deposited data

Results flagged for a closer look

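The log2 difference made by Dox in shHSF1 cells under NVP-HSP990 differed from that made by Dox in shNTC cells with DMSO for 2 histone probe sets. For H2BC12 (209806_at) the difference of differences was 2.07 (standard error 0.25, adjusted p = 0.0137, limma), from 1.83 in shHSF1 cells and -0.24 in shNTC cells. For H2BC4 (236193_at) it was 1.54 (standard error 0.26, adjusted p = 0.0405, limma), from 1.40 and -0.14, in a probe set that passed the signal filter only through the 2 shHSF1 Dox HSP990 arrays. The lines also differed in the inhibitor, so the hairpin and NVP-HSP990 cannot be told apart here. Within a group of 2 arrays neither can be called the one that stands apart, and the fits that left out an array called the interaction of H2BC12 in 4 of 8 and that of H2BC4 in 0 of 6.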

How the results depend on the processing

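All 11 histone probe sets called with the knockdown kept their direction in every alternative run. Their number, 11, was 7 with no filter and 7 with the stricter filter, 4 with only the arrays of the comparison, 6 with single-symbol probe sets without _x_at or _s_at, 0 with the methods' t-test (20 at an unadjusted p under 0.05, 18 of them higher, or 29.9% of those tested beside 10.2% of all probe sets), and 2 to 14 with an array left out. Against the Dox control, 14 became 9 with no filter, 8 with the stricter filter, 6 with single-symbol probe sets, 0 with the methods' t-test (13 unadjusted, or 19.4% beside 9.64%), and 3 to 17 with an array left out. The interaction count of 2 was 1 with 1 added before the log, 5 with 64 added, 1 with no filter, 4 after quantile normalization, 4 with 1 probe set per gene and 0 to 2 with an array left out. The clustered knockdown median of 0.78 was 1.07 with 1 added, 0.42 with 64 added, 0.25 with no filter, 1.20 with the stricter filter, 0.48 with single-symbol probe sets and 0.70 to 0.89 with an array left out. The variant median was -0.04 to 0.07 with an array left out. With NVP-HSP990 the medians were -0.08 to 0.03 (clustered) and -0.12 to -0.02 (variant). Counts with NVP-HSP990 and with Dox in shNTC were 0 in every fit. After adjustment the methods' t-test called 0 of all 29348 probe sets tested, in every comparison it was run on. The replicate number as a replicate block gave 16 calls with the knockdown, 17 against the Dox control and 5 in the interaction. The numbers pair nothing in the labels, and same-numbered arrays deviated together with r from -0.04 to 0.66 over the 6 pairs of groups, so it is a setting only. Uncalled knockdown differences changed sign without the first shHSF1 Dox HSP990 array for H3-3A and H3-3B (200080_s_at, 0.085, range over arrays left out -0.23 to 0.085), MACROH2A1 (207168_s_at, 0.066, range -0.11 to 0.066) and H2AZ1 (213911_s_at, 0.092, range -0.18 to 0.092), without the second for H2AC4 (208569_at, -0.22, range -0.22 to 0.26) and H3C3 (208577_at, -0.59, range -0.59 to 0.72), and without the first shHSF1 HSP990 array for H1-10 (204805_s_at, -0.36, range -0.36 to 0.81), H2AC4 (-0.17), H3C3 (-0.48) and H2AX (213344_s_at, 0.078, range -0.67 to 0.078). Uncalled NVP-HSP990 differences changed sign without an shNTC DMSO array for the H4 probe set 207046_at (second, -0.14, range -0.14 to 0.40) and H1-5 (214534_at, first, -0.077, range -0.077 to 0.61). Apart from settings that test fewer arrays or probe sets, the causes were not tested. Signals below the array medians, such as those of H2BC4, limit the size of a change.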
